A study of Mus musculus with 36 samples.

Results

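The genes described here code for the proteins that coat the lipid droplets of fat cells, the enzymes that release fatty acids from those droplets, and Hcar1 (also called Gpr81), the receptor through which lactate restrains that release. The list held, by name, Plin1, Plin2, Plin4, Cidec, Cidea, Lipe, Pnpla2, Mgll, G0s2 and Hcar1, 10 genes in all. Of these, 9 are among the 18194 genes that have a probe set annotated to 1 symbol and were measured, each by the probe set with the highest mean signal over the 36 arrays; no probe set carried the symbol Plin1 in the annotation used, so Plin1 is not analysed here.

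Stored triglyceride sits in droplets whose surface proteins decide how far lipases can reach it. The perilipins (Plin genes) form that surface, and the CIDE proteins (Cidec and Cidea) let droplets fuse and grow. Lipolysis then runs in steps: Pnpla2 (adipose triglyceride lipase) takes the first fatty acid, Lipe (hormone-sensitive lipase) the next and Mgll (monoglyceride lipase) the last, while G0s2 inhibits Pnpla2. Catecholamines drive the cascade through cyclic AMP, and Hcar1, a Gi-coupled receptor found mainly in adipocytes, lowers cyclic AMP. In the mammary gland, ducts grow into a fat pad, so fat cells mature around the epithelium, though not all of these genes are confined to fat cells.

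The arrays came from the mammary glands of female C57BL/6 mouse fetuses at embryonic day 19, with 12 groups of 3 arrays. Glands were wild type, ERα(+/+), or lacked estrogen receptor alpha, ERα(−/−), both from matings of heterozygous parents. From embryonic day 8 the dams carried pumps delivering vehicle (50% DMSO), bisphenol A (BPA, a weak xenoestrogen) at 250 ng/kg of body weight a day, or the potent steroidal estrogen ethinylestradiol (EE2) at 10 ng/kg a day. Laser capture separated the epithelium of each gland from the peri-ductal stroma, the ring of tissue close to it, so that each of the 18 glands gave 1 array of each compartment. The deletion was present in every cell of the ERα(−/−) fetuses, the heterozygous dams kept a working copy, and each litter gave at most 1 fetus of a genotype. Fetuses of both genotypes could thus come from the same litter, and the titles do not name the litters. Main fits of exposure and genotype treated the arrays of a compartment as independent, so litters may be fewer than arrays. The RNA of each capture was amplified before hybridisation, and captured tissue holds several cell types, so that fewer cells of a type and less RNA per cell cannot be told apart.

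Array medians ranged from 10.9 to 66.8 signal units, and the scaling between arrays is unknown. Compartment labels and markers went together: all 10 epithelial markers (keratins, claudins and the like) were lower in stroma, and the 7 measured fibroblast and 7 measured adipocyte markers were all higher there. Skeletal muscle markers stood apart in 3 stroma arrays (ERα(+/+) EE2 replicate 2, ERα(−/−) EE2 replicate 3 and ERα(−/−) BPA replicate 1), where the 10 markers summed to 24908 to 37654 against at most 751 in the other 15. In epithelium they stood apart on ERα(−/−) EE2 replicate 3, at 19025, and ERα(−/−) BPA replicate 1, at 12861, against at most 1894 on the other 16 arrays. Esr1, the gene deleted in the ERα(−/−) animals, read 20.3 to 396.7 in ERα(+/+) stroma and 13.9 to 81.8 in ERα(−/−) stroma on the brightest of its 3 probe sets. Those ranges overlap, and whether the probes lie in the deleted part was not examined, so this does not check the genotype labels.

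Promoter sequence is shown for 3 of the genes because 8 of the genes were higher in the same compartment, to show where motifs known from fat-cell regulators are and are not found. The windows are RefSeq's on GRCm38.p6, 250 bases before the start of transcription and 50 after it, and 9 of the 10 symbols have one, 12 windows in all. Hcar1, the gene with the widest separation by exposure below, has its upstream stretch at chr5:123880004-123880253 on the minus strand. Plin2 lies at chr4:86670058-86670309 and Lipe at chr7:25395988-25396237, both on the minus strand. Capitals mark a nuclear receptor half-site (AGGTCA on either strand) or an E-box (CACGTG).
Hcar1: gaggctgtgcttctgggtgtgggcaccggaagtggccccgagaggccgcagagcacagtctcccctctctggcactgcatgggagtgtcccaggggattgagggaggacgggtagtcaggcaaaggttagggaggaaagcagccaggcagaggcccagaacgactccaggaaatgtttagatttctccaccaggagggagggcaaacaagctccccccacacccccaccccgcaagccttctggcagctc
Plin2: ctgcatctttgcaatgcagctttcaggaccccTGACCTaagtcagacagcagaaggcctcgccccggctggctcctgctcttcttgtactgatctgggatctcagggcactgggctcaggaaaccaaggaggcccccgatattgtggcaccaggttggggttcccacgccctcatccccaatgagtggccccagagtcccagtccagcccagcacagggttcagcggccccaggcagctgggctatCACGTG
Lipe: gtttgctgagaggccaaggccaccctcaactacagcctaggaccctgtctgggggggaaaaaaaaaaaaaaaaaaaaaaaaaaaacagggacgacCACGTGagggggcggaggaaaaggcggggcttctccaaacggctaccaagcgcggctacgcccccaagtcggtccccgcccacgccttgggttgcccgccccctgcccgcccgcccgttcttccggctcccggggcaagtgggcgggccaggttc

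The half-site was found in Plin2 alone of the 9 genes with a window (the list without Cidea), at positions -218 to -213 from the start, and in 16.3% of all 32851 windows. E-boxes were found in Plin2 at -4 to 2, Lipe at -155 to -150 and Mgll at -44 to -39, against 7.15% of all windows. The full direct repeat of half-sites bound by PPARγ with RXR (AGGTCANAGGTCA, which contains the half-site) was in 0.0396% of windows, the palindromic estrogen response element (GGTCANNNTGACC) in 0.07% and a C/EBP motif (TTGCNNCAA) in 2.08%. None of these 3 was among the letters of the 12 windows.

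The first comparison asked how the droplet and lipolysis genes divided between the compartments of a gland. Peri-ductal stroma carried the higher signal for 8 of the 9 measured genes, by 1.24 to 2.43 on the log2 scale, and Cidea did not pass the test. These 8 were called at an adjusted p under 0.05 by limma on log2 signal with the gland as a block, adjusted over all 45101 probe sets, of which 4.51% were called higher in stroma and 16.8% lower. After quantile normalization the same 8 were called, against 8% of probe sets called higher and 8.13% lower. Over all probe sets the median difference was -0.35, so relative to it each of the 8 is larger by that amount.

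**Figure D1:**
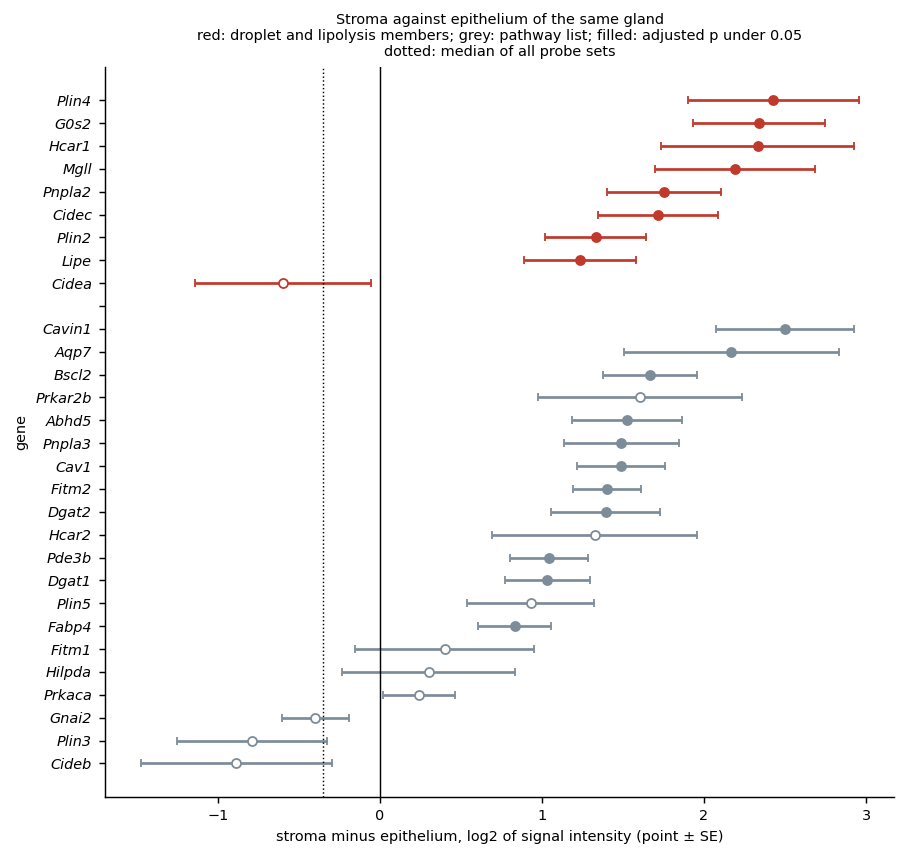
Stroma minus epithelium of the same gland for the 9 measured droplet and lipolysis genes (red) and the 20 measured genes of the pathway list (grey), as log2 of signal intensity with the standard error; filled points passed an adjusted p under 0.05 and the dotted line is the median of all probe sets. The 8 filled red points lie between 1.24 and 2.43, and Cidea sits at -0.60.

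Among the droplet coats, Plin4, a perilipin of white fat cells, averaged 514.1 ± 395.5 signal units in stroma and 197.2 ± 200.6 in epithelium (SD, n = 18 each). Plin4 was higher in the stroma of 17 of 18 glands, and the paired log2 difference was 2.43 ± 0.53 (SE, limma adjusted p = 0.00252). Its size rests in part on dim values: epithelial Plin4 fell to 1.0, and 5 of 18 epithelium arrays lay below their median signal. Across the settings tried it ran from 1.76 to 2.84. Plin2, a perilipin found on droplets in most cell types, averaged 780.3 ± 345.1 in stroma and 358.2 ± 233.2 in epithelium and differed by 1.33 ± 0.31 (limma adjusted p = 0.00444), in 16 of 18 glands. Its lowest stroma array read 224.9 and its lowest epithelium array 28.6, and it was above the array median on all 36 arrays.

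Cidec, which drives droplet fusion in white fat, averaged 412.4 ± 253.9 in stroma and 220.5 ± 268.4 in epithelium and was higher in stroma by 1.72 ± 0.37 on the log2 scale (limma adjusted p = 0.00256). Stroma was the higher side in 16 of 18 glands. The exceptions were ERα(+/+) vehicle gland 3, at 432.9 in stroma and 743 in epithelium, and ERα(−/−) BPA gland 2, at 294 and 491. Cidea, the family member of brown and beige fat, was dim: 28 of its 36 values lay below their array's median signal. It was higher in stroma in 8 of 18 glands, with a log2 difference of -0.60 ± 0.54 (limma adjusted p = 0.469).

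Of the lipases, Pnpla2 averaged 1549 ± 778.9 in stroma and 713.8 ± 758 in epithelium and differed by 1.75 ± 0.35 (limma adjusted p = 0.00133), with stroma higher in 15 of 18 glands. Mgll averaged 591.7 ± 541.8 and 187.2 ± 221.8 and differed by 2.19 ± 0.49 (limma adjusted p = 0.00335), in 16 of 18 glands. Its lowest epithelium array read 1.6, and the difference ran from 1.72 to 2.60 across the settings tried. Lipe differed by 1.24 ± 0.35 (limma adjusted p = 0.0142), with means of 194.6 ± 111 and 110.4 ± 91.2 and stroma higher in 14 of 18 glands. Without the gland block the adjusted p of Lipe became 0.0535, and the count of genes called became 7.

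G0s2, the Pnpla2 inhibitor, was the only gene of the 9 higher in the stroma of all 18 glands. It averaged 2203 ± 842.4 in stroma and 811.4 ± 815.9 in epithelium and differed by 2.34 ± 0.41 on the log2 scale (limma adjusted p = 0.000381). Hcar1 averaged 138.5 ± 128.4 in stroma and 65.8 ± 96.4 in epithelium and differed by 2.33 ± 0.60 (limma adjusted p = 0.00805), in 14 of 18 glands. With 16 added to every intensity before the logarithm, which compresses dim values, the Hcar1 difference was 1.25 and still called. Hcar1 lay below the array median on 2 of 18 stroma arrays and on 11 of 18 epithelium arrays.

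The wider pathway list went in the same direction. Of its 20 measured genes, 11 were higher in stroma and 0 lower at an adjusted p under 0.05 by limma, beside 4.51% and 16.8% of all probe sets. The median log2 difference was 1.18 against -0.35 over all probe sets. Among the genes of droplet formation, Cavin1, a caveolar coat protein needed for fat storage, was highest at 2.50 ± 0.42, and Bscl2 (seipin, which organises new droplets) stood at 1.67 ± 0.29. Cav1, the main caveolin of fat cells, stood at 1.49 ± 0.27. Among the lipase partners, Aqp7, the channel through which glycerol leaves, stood at 2.17 ± 0.66, Abhd5, the activator of Pnpla2, at 1.53 ± 0.34, and Pnpla3 at 1.49 ± 0.35. The 5 others called were Fitm2, Dgat2, Pde3b, Dgat1 and Fabp4, the last of which also counts among the adipocyte markers. Other coats gave no call: Plin5 differed by 0.93 ± 0.39 (limma adjusted p = 0.0972), Plin3 by -0.79 ± 0.46 and Cideb by -0.89 ± 0.59.

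Whether the genes move together from gland to gland was described by Pearson's r on log2 signal minus the array median, over the 18 arrays of a compartment, which share dissection, amplification and scaling. Across the 36 pairs of genes r ranged from -0.03 to 0.75 in stroma, with a median of 0.52. In epithelium it ranged from 0.27 to 0.95, with a median of 0.66. The closest pair was Cidec with G0s2 in epithelium, at r = 0.946. Plin2 and Hcar1 in stroma gave r = -0.031.

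The epithelium arrays split within their groups. ERα(+/+) vehicle replicate 3 and ERα(+/+) BPA replicate 1 had the highest Pnpla2 of the epithelium, at 1951.7 and 2765.8, against 48.6 to 93.1 in the other ERα(+/+) vehicle arrays and 143.4 to 337.9 in the other ERα(+/+) BPA arrays. The same 2 arrays had the highest epithelial Cidec, at 743 and 971.5, and Lipe at 197.3 and 344.9, of which the first lay within the 196.6 to 226.3 of the ERα(−/−) BPA arrays. The 7 adipocyte markers summed to 28539 and 38662 on those 2 arrays, to 24820 to 29495 on the 3 ERα(−/−) BPA arrays and to 2467 to 21698 on the other 13 epithelium arrays. Epithelial marker sums on the 2 arrays were 10744 and 11536, both below the compartment's median of 13720. The compartment, with these 2 arrays included, ran from 8736 to 19074. The 4 markers of keratinised epidermis summed to 12161 on ERα(+/+) vehicle replicate 3 and to 17305 in the stroma of the same gland, against at most 638.7 on the other 34 arrays. Fibroblast markers summed to 32395 and 30319 on ERα(+/+) vehicle replicate 3 and ERα(+/+) BPA replicate 1. They summed to 7701 to 16993 on the other ERα(+/+) vehicle and BPA arrays and 22559 to 31460 on the ERα(−/−) BPA arrays. Endothelial markers summed to 1864 and 3145.5 on the 2 arrays, against 35.6 to 283.5 on the other ERα(+/+) vehicle and BPA arrays. The part of adipocyte, other stromal and epidermal material in these values was not tested.

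**Figure D2:**
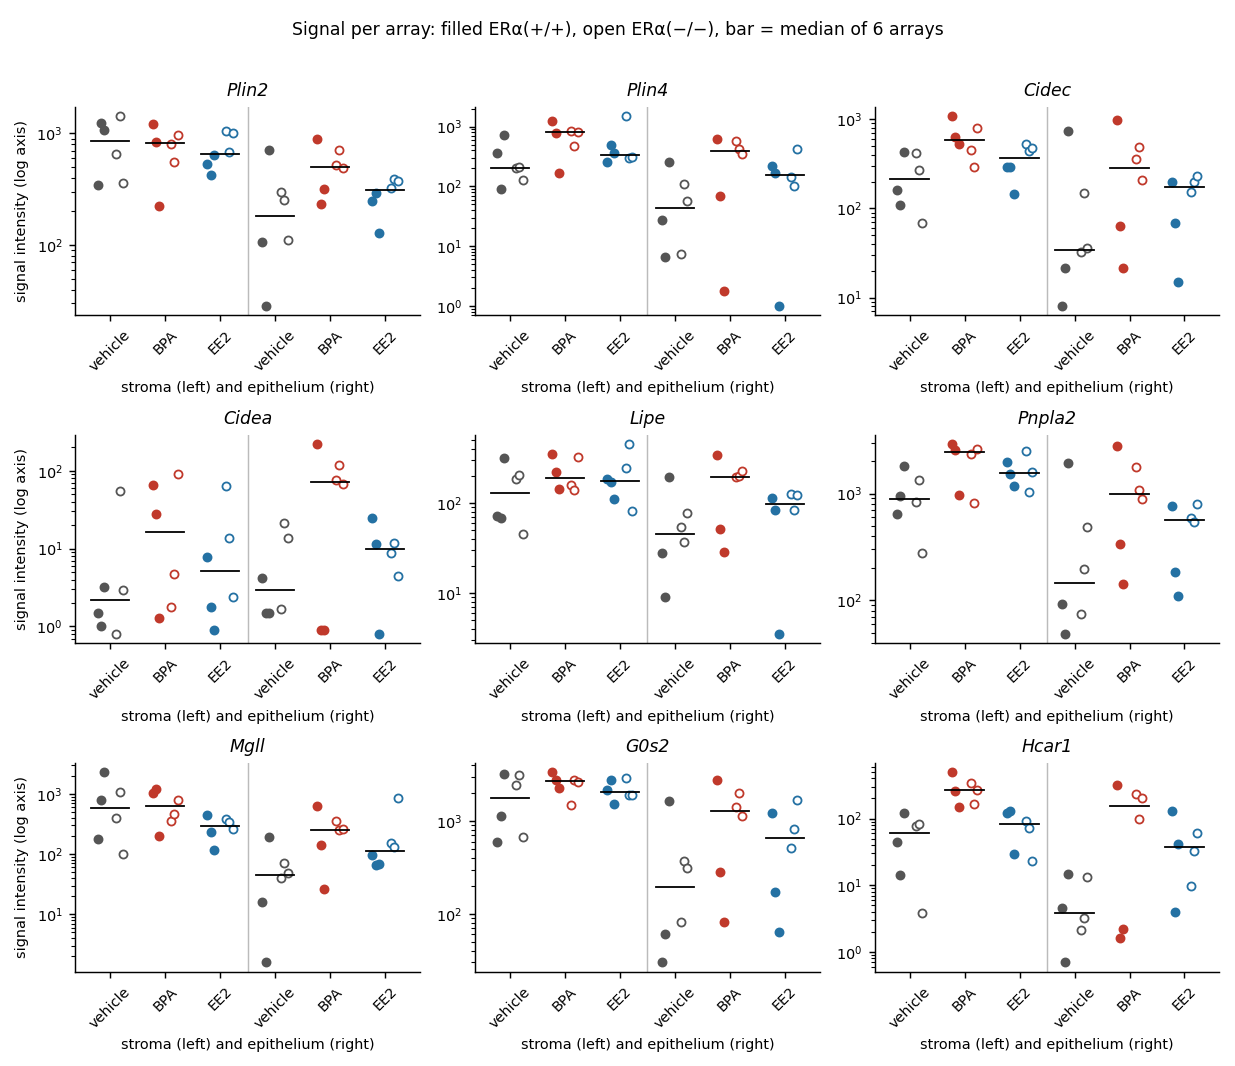
Signal intensity (log axis) of the 9 measured genes on each of the 36 arrays, by exposure in stroma (left 3 columns) and epithelium (right 3 columns); filled points are ERα(+/+), open points ERα(−/−), bars the median of 6 arrays. The 6 BPA stroma values of Hcar1, from 149.4 to 492.2, all lie above its vehicle and EE2 stroma values, whereas its epithelial BPA values run from 1.6 to 322.3.

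The next question was whether fetal exposure to BPA changed these genes in the stroma, with both genotypes weighted equally. None of the 9 passed an adjusted p under 0.05 by limma, as none of the 45101 probe sets did (0%). At an unadjusted p under 0.05, Hcar1, Cidec, Plin4 and Pnpla2 were higher with BPA, 4 of 9 where 3.19% of all probe sets were higher at that level. After quantile normalization it was again 4 of 9, against 2.82% of probe sets. The study had already listed Hcar1 for BPA-exposed stroma from these same arrays, and the genes are correlated between arrays. The 4 are therefore not independent of that earlier result or of each other. The median difference of the 9 genes was 1.12, beside 0.16 over all probe sets.

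Hcar1 was the gene whose BPA arrays stood clear of the rest. In ERα(+/+) stroma it read 44.4, 14.2 and 120.4 with vehicle, 492.2, 261.8 and 149.4 with BPA, and 121.7, 131.4 and 29.4 with EE2. In ERα(−/−) stroma it read 78.3, 83.7 and 3.8 with vehicle, 341.5, 166.8 and 266.4 with BPA, and 91.4, 72.4 and 23 with EE2. All 6 BPA arrays thus lay above all 6 vehicle arrays and all 6 EE2 arrays, while vehicle and EE2 overlapped. Complete separation of that kind was shown by 0.104% of all probe sets for BPA above vehicle and by 0.157% for BPA above EE2, and by no other gene of the 9. The means were 279.7 ± 125.9 with BPA and 57.5 ± 44.7 with vehicle (SD, n = 6 arrays each, which may come from fewer than 6 litters).

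The fitted Hcar1 difference between BPA and vehicle in stroma was 2.87 ± 0.79 on the log2 scale (limma, unadjusted p = 0.00216, adjusted p = 0.993). Against EE2 it was 2.00 ± 0.79 (limma, unadjusted p = 0.022, adjusted p = 1), the 1 gene of 9 at an unadjusted p under 0.05 in that contrast, where 3.75% of probe sets were, and 0% after adjustment. Without ERα(+/+) BPA replicate 1, ERα(+/+) EE2 replicate 3, ERα(−/−) EE2 replicate 3 or the 3 muscle-rich arrays, it was 0 of 9. These contrasts share the BPA arrays. Leaving out each array in turn moved the difference from vehicle between 2.14 and 3.25, and leaving out the 3 arrays rich in muscle markers gave 2.76. With 16 added to every intensity, the difference from vehicle was 2.20. The study listed Hcar1 for BPA-exposed stroma from these same arrays, so its separation is not independent evidence.

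Cidec read 69.6, 216.2 and 432.9 as lowest, median and highest of the vehicle stroma arrays and 294, 583.2 and 1089.1 of the BPA arrays, and 5 of 6 BPA values exceeded every vehicle value. Its difference was 1.56 ± 0.52 on the log2 scale (limma, unadjusted p = 0.00896, adjusted p = 0.993). Plin4 ran from 88.8 through 206.1 to 709.5 with vehicle and from 169.4 through 795.4 to 1247.5 with BPA, a difference of 1.46 ± 0.63 (limma, unadjusted p = 0.034). Pnpla2 ran from 280.6 through 892.6 to 1810.9 with vehicle and from 822.8 through 2448 to 2897.3 with BPA, a difference of 1.12 ± 0.52 (limma, unadjusted p = 0.0489). For both, 4 of 6 BPA values exceeded every vehicle value and the ranges overlapped.

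On their brightest probe sets, the other 5 genes had larger unadjusted p in the stroma. Plin2 differed by -0.11 ± 0.52 between BPA and vehicle, Mgll by 0.21 ± 0.72, G0s2 by 0.73 ± 0.50, Lipe by 0.82 ± 0.58 and the dim Cidea by 1.92 ± 1.26. Without the 3 muscle-rich arrays, 2 of 9 genes, Hcar1 and Cidec, had an unadjusted p under 0.05. It was also 2 of 9 without any 1 of ERα(+/+) vehicle replicate 2, ERα(+/+) BPA replicates 1 or 2, ERα(−/−) vehicle replicate 3, or ERα(−/−) BPA replicates 1 or 3. Of the pathway list, 0 of 20 genes had an unadjusted p under 0.05 with BPA in stroma, with a median difference of 0.45.

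Marker levels beside these stroma values were as follows. The 7 adipocyte markers summed to 15418 to 38139 with vehicle, 25361 to 42515 with BPA and 23275 to 36378 with EE2, and none was at 0. Their median BPA difference was 0.49 and the largest 2.29, and 0 of 7 had an unadjusted p under 0.05. After quantile normalization 1 of 7 was higher at that level, where 2.82% of probe sets were. The 10 skeletal muscle markers had a median BPA difference of 1.58, positive for 10 of 10, and the 7 brown adipocyte markers one of 0.86, positive for 5 of 7, with no marker of either list at an unadjusted p under 0.05. The part of fat or muscle content in the BPA values of Hcar1, Cidec, Plin4 and Pnpla2 was not tested.

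**Figure D3:**
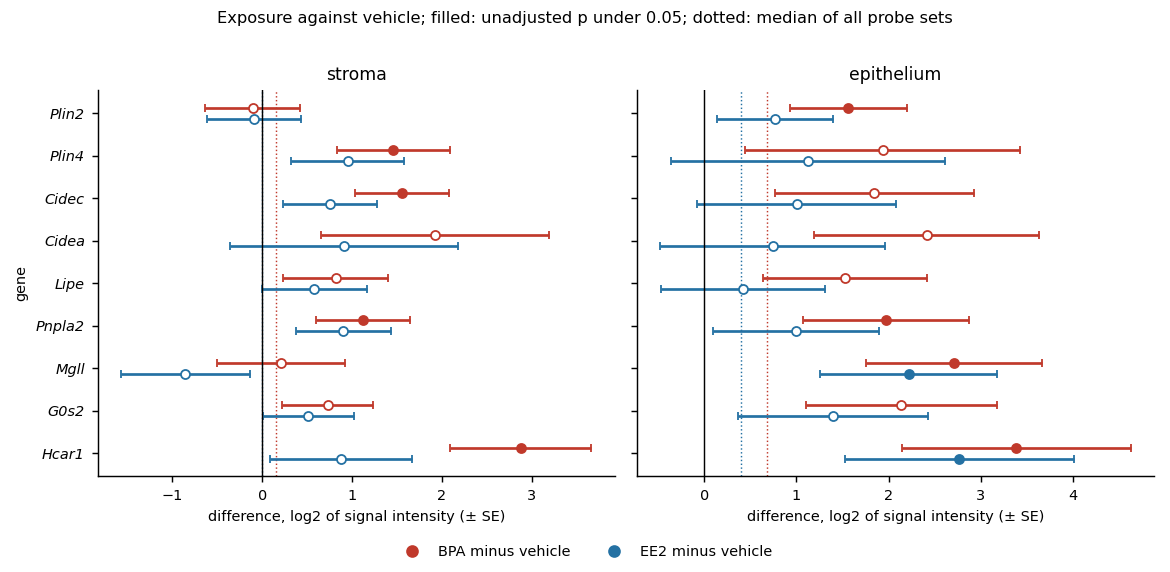
Log2 difference from vehicle with its standard error for the 9 measured genes, with BPA (red) and EE2 (blue), in stroma and epithelium; filled points had an unadjusted p under 0.05, none passed adjustment, and dotted lines are the medians of all probe sets. Hcar1 with BPA lies farthest from 0 in both compartments, at 2.87 and 3.39.

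The same genes were then compared between EE2 and vehicle in stroma. None of the 9 genes passed, by adjusted p (0% of probe sets) or by an unadjusted p under 0.05 (4.51% of probe sets). Hcar1 differed from vehicle by 0.87 ± 0.79, Plin4 by 0.95 ± 0.63, Pnpla2 by 0.90 ± 0.52 and Cidec by 0.75 ± 0.52. Mgll went the other way on its brightest probe set, at -0.86 ± 0.72, while its dimmer probe sets were higher with EE2, as given below. This group holds 2 of the muscle-rich arrays, and in it the 10 muscle markers had a median difference of 2.96 from vehicle and 3 of them an unadjusted p under 0.05.

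Relative to the other 8 genes on the same array, Hcar1 in stroma was again highest on average with BPA. Its log2 signal minus the median of the other 8 was -3.28 ± 1.07 with vehicle, -1.21 ± 0.46 with BPA and -2.61 ± 0.99 with EE2 (SD, n = 6 each). Vehicle and EE2 did not differ by median, at -2.77 and -2.79. The BPA arrays ran from -1.63 to -0.51 and the vehicle arrays from -4.89 to -2.38, without overlap, while the EE2 arrays, from -4.06 to -1.41, overlapped both. The level is a within-array description and was not tested.

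**Figure D4:**
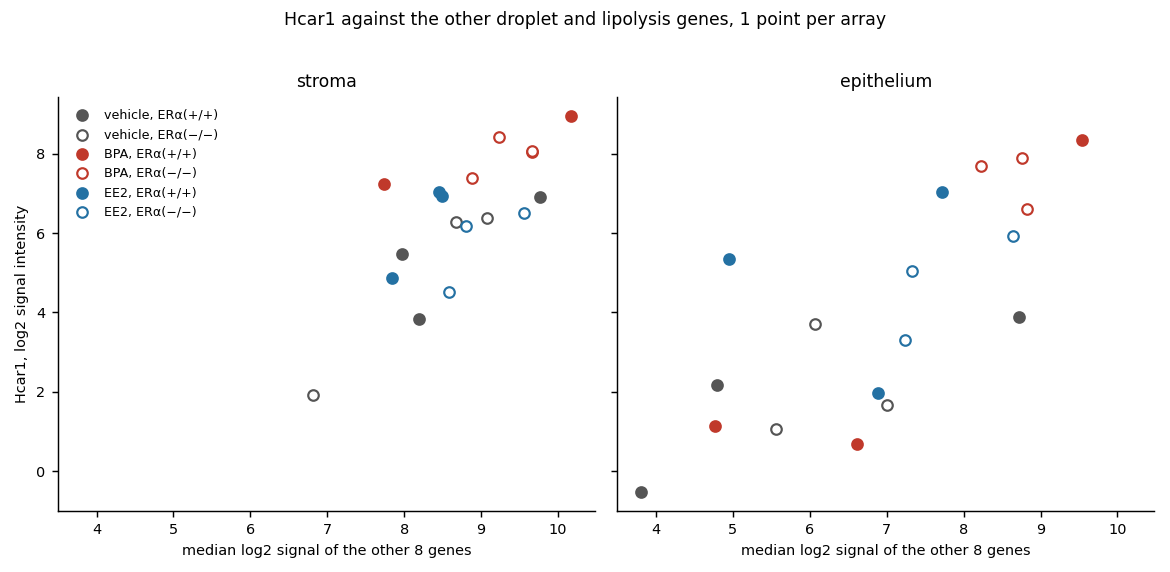
Hcar1 log2 signal against the median log2 signal of the other 8 genes on the same array, 18 stroma and 18 epithelium arrays, coloured by exposure; filled points are ERα(+/+) and open points ERα(−/−). In stroma the BPA arrays lie above the vehicle arrays of like median, with differences of -1.63 to -0.51 against -4.89 to -2.38, and in epithelium the exposures overlap.

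The genes whose stroma pattern was most like that of Hcar1 were Car5b (r = 0.857), Hsdl2 (0.851), Etfb (0.824), Fndc5 (0.811) and Ndufa9 (0.811), by Pearson's r of log2 signal minus the array median over 18 stroma arrays, among 10783 other genes above the median level. Car5b averaged 233.8 with vehicle, 721.3 with BPA and 355.9 with EE2 in stroma, and Hsdl2 508.5, 741.8 and 533.5. These genes were picked for likeness to Hcar1 on arrays that include the BPA arrays. Their order by exposure thus follows in part from the choice and is not separate evidence of a response.

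The same question was put to the epithelium. None of the 9 genes passed adjustment by limma (0% of probe sets). Unadjusted, Hcar1, Mgll, Pnpla2 and Plin2 were higher at p under 0.05, 4 of 9 where 17.3% of all probe sets were, since the median of all probe sets itself lay 0.68 above vehicle. After quantile normalization it was Mgll and Hcar1, 2 of 9 where 3.67% of probe sets were. Single arrays moved the unadjusted count: without ERα(+/+) vehicle replicate 2 or ERα(+/+) BPA replicate 1 it was 2, without ERα(+/+) vehicle replicate 3 it was 7 and without ERα(+/+) BPA replicate 3 it was 8. Without the 2 epithelium arrays rich in muscle markers it was 3, namely Hcar1, Mgll and Plin2. The share of all probe sets was not computed for these reduced fits, so the moves cannot be read as particular to these genes.

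Hcar1 in ERα(+/+) epithelium read 4.5, 0.7 and 14.8 with vehicle, 322.3, 1.6 and 2.2 with BPA, and 131.7, 3.9 and 40.9 with EE2. In ERα(−/−) epithelium it read 2.1, 3.2 and 13.2 with vehicle, 236.2, 98 and 205.7 with BPA, and 9.9, 32.9 and 60.3 with EE2. The 3 ERα(−/−) BPA arrays were all high, whereas 1 of 3 ERα(+/+) BPA arrays was. That array is the one with the highest adipocyte marker sum of the epithelium. The adipocyte sums of the 3 ERα(−/−) BPA arrays were 24820 to 29495. ERα(+/+) vehicle replicate 3, with a sum of 28539, read 14.8. Pooled over genotypes the Hcar1 difference between BPA and vehicle was 3.39 ± 1.24 on the log2 scale (limma, unadjusted p = 0.0151, adjusted p = 0.223). Without ERα(+/+) BPA replicate 1 it was 2.15. Every vehicle value lay below the median signal of its array, so the size of the difference rests on dim values. With 16 added to every intensity it was 2.11, and with array medians subtracted 2.48.

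Mgll ran from 1.6 through 44.9 to 191 with vehicle and from 26.2 through 254.8 to 617.7 with BPA in epithelium, a difference of 2.71 ± 0.96 (limma, unadjusted p = 0.0123, adjusted p = 0.22). Pnpla2 differed by 1.97 ± 0.90 and Plin2 by 1.56 ± 0.63. The remaining genes differed by 1.53 to 2.41, all toward BPA. Of the pathway list, 7 of 20 genes were higher at an unadjusted p under 0.05, among them Aqp7 at 4.24 ± 1.46 and Dgat2 at 2.31 ± 0.64, the enzyme that makes storage triglyceride. That share, too, stands beside 17.3% of all probe sets, and after quantile normalization it was 3 of 20 beside 3.67%.

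Markers of other cell types were read on the same epithelium arrays. At an unadjusted p under 0.05, 4 of 6 endothelial, 3 of 8 leukocyte and 3 of 7 brown adipocyte markers were higher with BPA. So were 1 of 7 adipocyte and 1 of 7 fibroblast markers, where 17.3% of all probe sets were higher at that level. No marker of these lists was lower at that level. After quantile normalization the counts were 0, 1, 2, 1 and 0 in that order. The adipocyte markers summed to 2467 to 28539 with vehicle, 4743.5 to 38662 with BPA and 2596 to 21698 with EE2, none at 0, and their median BPA difference was 1.81. The endothelial markers summed to 35.6 to 1864 with vehicle and 178 to 3145.5 with BPA. The fibroblast markers summed to 7701 to 32395 with vehicle (median 11340) and 15041 to 31460 with BPA (median 22780). The part of these cell types in the values of Hcar1, Mgll, Pnpla2 and Plin2 was not tested.

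With EE2 in epithelium, Mgll (2.22 ± 0.96) and Hcar1 (2.77 ± 1.24) were higher at an unadjusted p under 0.05, 2 of 9 where 8.15% of probe sets were. After quantile normalization 0 of 9 were, against 3.44%. Leaving out 1 array moved this count from 0, as without ERα(+/+) vehicle replicates 1 or 2, ERα(+/+) EE2 replicate 1, ERα(−/−) vehicle replicate 1 or ERα(−/−) EE2 replicate 3, to 6 without ERα(+/+) vehicle replicate 3. The last of those named at 0 is one of the 2 muscle-rich epithelium arrays, and without both the count was also 0. It was 1 without ERα(+/+) EE2 replicate 3, ERα(−/−) vehicle replicates 2 or 3, or ERα(−/−) EE2 replicate 2. These reduced fits have no share of all probe sets beside them. No member passed adjustment, while 0.00222% of probe sets did. Between BPA and EE2 in epithelium, 0 of 9 genes had an adjusted p (0% of probe sets) or an unadjusted p under 0.05 (4.22% of probe sets), and Hcar1 differed between them by 0.62 ± 1.24.

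Whether an exposure acted differently on the compartments was tested as an interaction with the gland as a block. No gene of the 9 passed adjustment (0% of probe sets for either exposure). For BPA, Mgll (stroma minus epithelium effect -2.50 ± 1.02) and Plin2 (-1.67 ± 0.70) had an unadjusted p under 0.05, where 7.64% of probe sets did. After quantile normalization, or without ERα(+/+) vehicle gland 2, 0 of 9 did, and without ERα(−/−) BPA gland 1 or gland 2, 1 of 9 did. For EE2 it was Mgll alone, at -3.07 ± 1.02, where 7.55% did. Both Mgll values are those of its brightest probe set, and other probe sets of the gene gave other signs. The Hcar1 interaction with BPA was -0.51 ± 1.47.

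Genotype was compared to ask whether the genes depend on ERα. Averaged over exposures, 0 of 9 genes differed between ERα(−/−) and ERα(+/+) in stroma by adjusted p (0.00222% of probe sets) or at an unadjusted p under 0.05 (3.82%). In epithelium it was also 0 of 9, against 0% and 8.19% of probe sets. That epithelial count at an unadjusted p under 0.05 became 6 of 9 without ERα(+/+) vehicle replicate 3 and 6 of 9 without ERα(+/+) BPA replicate 1, which are 2 of the 5 epithelium arrays with adipocyte marker sums of 24820 or more. It was 2 without ERα(+/+) EE2 replicate 1 and 1 without ERα(−/−) vehicle replicate 1. For these reduced fits the share of all probe sets was not computed, so a shift of these genes and a general shift cannot be told apart. In stroma Hcar1 averaged 125.3 ± 112.6 in ERα(−/−) and 151.7 ± 148.2 in ERα(+/+) (SD, n = 9 each), a log2 difference of -0.40 ± 0.64, and the other genes lay between -0.27 and 1.17. Standard errors of 0.41 to 1.03 leave room for differences of that order.

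The BPA difference of Hcar1 in stroma was 2.66 ± 1.12 in ERα(+/+) glands and 3.08 ± 1.12 in ERα(−/−) glands, and the interaction with genotype was 0.42 ± 1.58 (limma, unadjusted p = 0.793, 3 arrays a group). In epithelium it was 1.53 ± 1.75 and 5.24 ± 1.75, with an interaction of 3.70 ± 2.48 (limma, unadjusted p = 0.156). The ERα(−/−) vehicle values behind the larger one were 2.1 to 13.2, all below their array medians. None of the 9 genes had an interaction at an unadjusted p under 0.05, although 2 did for BPA in epithelium without ERα(+/+) BPA replicate 1. The shares that follow are those of the full fits, not of that reduced one. In stroma 3.68% of probe sets did for BPA and 3.99% for EE2, and in epithelium 3.47% and 6.01%. At adjusted p none of the probe sets did (0%).

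The probe sets of a gene did not always read alike. Mgll has 4, and the brightest, with a mean signal of 389.5 and used above, differed by 0.21 ± 0.72 between BPA and vehicle in stroma and by -0.86 ± 0.72 between EE2 and vehicle. The next, with a mean of 206.5, differed by 2.65 ± 1.26 and 3.05 ± 1.26, and the one after it, with a mean of 94, by 2.67 ± 1.09 and 3.04 ± 1.09. The dimmest lay below the array median on 32 of 36 arrays. None passed adjustment by limma. For BPA and EE2 in turn, unadjusted p by limma was 0.0524 and 0.028 on the probe set with a mean of 206.5. It was 0.0266 and 0.0132 on the one with a mean of 94. The direction of the EE2 difference of Mgll in stroma thus turned with the probe set, and counts of genes at unadjusted p rest on the brightest. Between the compartments all 4 Mgll probe sets were on average higher in stroma, by 0.52 to 2.19, and only the brightest was called. The interaction of exposure with compartment turned as well: for EE2 it was -3.07 ± 1.02 on the brightest, 0.56 ± 1.55 on the next and 3.81 ± 1.77 on the one after it, the last at an unadjusted p of 0.0443 by limma. For BPA it was -2.50 ± 1.02, -0.90 ± 1.55 and 2.17 ± 1.77 in the same order. No probe set of Mgll passed adjustment in these interactions. The second probe sets of Lipe and Pnpla2 were dim, below the array median on 34 and 20 of 36 arrays, and differed between compartments by -0.39 and -0.13.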

How the data were processed

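RNA from laser-captured fetal mammary stroma and epithelium was amplified and hybridised to Affymetrix mouse genome expression arrays, 36 in all. The authors produced cell files with GCOS (version not given), and their methods name RMA and a log transformation. The deposited values are linear signal intensities with no negatives and 39 zeros, so their scaling between arrays is unknown, and the number of arrays limits the precision. Groups came from the sample titles. The named genes were the 10 members, the pathway genes called in the compartment comparison (largest 6 with values), and the 5 genes most like Hcar1. Members and lists were chosen with earlier results of these data known.

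Intensities were raised to at least 0.1 and log2 transformed. limma 3.58.1 (R 4.3.3) was fitted to all 45101 probe sets, with 6 group means per compartment for exposure and genotype and the gland as a fixed block between compartments, and p-values were Benjamini-Hochberg adjusted over all probe sets. Calls needed an adjusted p under 0.05. Of the probe sets, 34958 carry 1 symbol, 932 several and 9211 none. Scripts were tested on simulated data. Alternatives covered scaling, low values, filtering, array weights, variance model, blocks, left-out arrays and the methods' Welch test; leaving out the muscle-rich arrays was added after seeing the data.

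The gland block rests on the capture, in which both compartments of 1 gland came from the same fetus; arrays with the same group and number in their titles were taken as 1 gland. Deviations from group means correlated above 0.1 in 7 of 18 gland pairs (mean r 0.0774). Each stroma array was also compared with the 3 epithelium arrays of its genotype and exposure. Among those 3, it correlated best with its own partner in 14 of 18.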

Additional observations from a re-analysis of the deposited data

Results flagged for a closer look

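In 54 sets of 6 arrays (9 genes, 2 compartments, 3 exposures), 5 values on 4 arrays stood far from the other 5 of their set on the log2 scale; chance gives about 1 in 20 sets. In epithelium exposed to EE2, ERα(+/+) replicate 3 was far below the rest for Plin4, at a signal of 1.0, and for Lipe, at 3.5. In the same set, ERα(−/−) replicate 3 was far above for Mgll, at 838.6. That array also had the highest sum of the 10 skeletal muscle markers in the epithelium, 19025, and its part in the Mgll value was not tested. In stroma exposed to EE2, ERα(−/−) replicate 1 was far above for Plin4, at 1500.1. In vehicle stroma, ERα(−/−) replicate 2 was far above for Cidea, at 55.1.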

How the results depend on the processing

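The compartment comparison gave 8 of 9 genes under every setting but one: with no replicate block it gave 7, and the adjusted p of Lipe was 0.0535. The replicate block (replicate number for exposures, exposure with replicate number for genotype and its interactions) left every other count at 0; the titles do not say that glands of one number share a litter. The methods' Welch test was read at an unadjusted p under 0.05 with at least a 2-fold change. It counted 3 genes for BPA against vehicle in stroma and 1 for BPA against EE2 in stroma. In epithelium it counted 1 for BPA and 1 for EE2 against vehicle, and after Benjamini-Hochberg each count was 0. The share of all probe sets meeting that rule is not given, so the counts are not read as a result about these genes. Leaving out the muscle-rich arrays turned no direction. Counts at unadjusted p with arrays left out stand without the share of all probe sets, which was not computed for those fits. On the brightest probe sets, the settings tried turned 4 differences, and the cause was not tested; Mgll with EE2 in stroma turned between its probe sets. Lipe with EE2 in epithelium was -0.0035 after quantile normalization, -0.109 with array medians subtracted and -0.0799 without the 3 dimmest arrays, and -0.0799 to 1.23 leaving out each array. Mgll with BPA in stroma was -0.0633 with medians subtracted and -0.273 to 0.639 leaving out each array. Plin2 with BPA in stroma was 0.273 with array weights, 0.422 without the 3 dimmest arrays and -0.395 to 0.252 leaving out each array. Plin2 with EE2 in stroma was 0.0860, 0.0765 and -0.380 to 0.166 in the same order. Groups of 3 arrays and unknown scaling limit what exposure and genotype contrasts can show.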
